A study of Homo sapiens with 12 samples.

Results

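MIA PaCa-2, an established human line from a pancreatic carcinoma, was studied after knockdown of RBM3 by small interfering RNA (siRNA). The series holds 12 RNA sequencing libraries, and the 6 described here are the MIA PaCa-2 libraries: 3 received a mixture of siRNAs against RBM3 (replicates 1, 2 and 5) and 3 received a negative control siRNA (replicates 1, 2 and 4). Both groups carried the same transfection, 25 nM siRNA with a lipofection reagent for 4.5 h after 72 h of culture, and both were collected after an overnight recovery. The other 6 libraries are the same design in PANC-1, another pancreatic carcinoma line. The design limits the model in several ways: it is 1 cell line, and the siRNA was given transiently. A single mixture of siRNAs was set against a single control siRNA. Effects of lower RBM3 and other effects of that mixture cannot be told apart in either line. The labels also do not say whether the replicates were separate cultures. P-values therefore measure only the spread between these libraries, which may be technical. The question was which transcripts differ once RBM3 is lowered, and the study's title singles out PRR11.

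RBM3 is a small RNA-binding protein with an RNA recognition motif and a glycine-rich tail. It is known as a cold-inducible protein that binds many messenger RNAs and influences their translation and stability. It is expressed in many carcinomas, pancreatic carcinoma among them. PRR11, which carries proline-rich stretches and is tied to proliferation in tumours, lies head to head with SKA2, a subunit of the complex that ties kinetochores to spindle microtubules.

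RBM3, on chromosome X, was the gene with the greatest fall among those called. RBM3 had 44.4, 37.4 and 61.9 CPM (counts scaled to library size, normalised by the trimmed mean of M values, TMM) in the RBM3 siRNA libraries, against 250, 277 and 207 CPM in the control libraries. All 3 siRNA libraries lay below all 3 controls, and the siRNA mean was 19.6% of the control mean. The log2 fold change was -2.35 with a standard error of 0.31 (edgeR quasi-likelihood test, adjusted p = 0.0426). In these bulk libraries, less transcript in every cell and fewer cells with it cannot be told apart. An exact two-sided permutation test of 3 against 3 libraries gave p = 0.1, the smallest it allows. CIRBP, the other cold-inducible RNA-binding protein of the same family, had 107, 83.3 and 142 CPM with RBM3 siRNA and 137, 112 and 102 CPM with control siRNA, which overlap (log2 fold change -0.08).

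**Figure D1:**
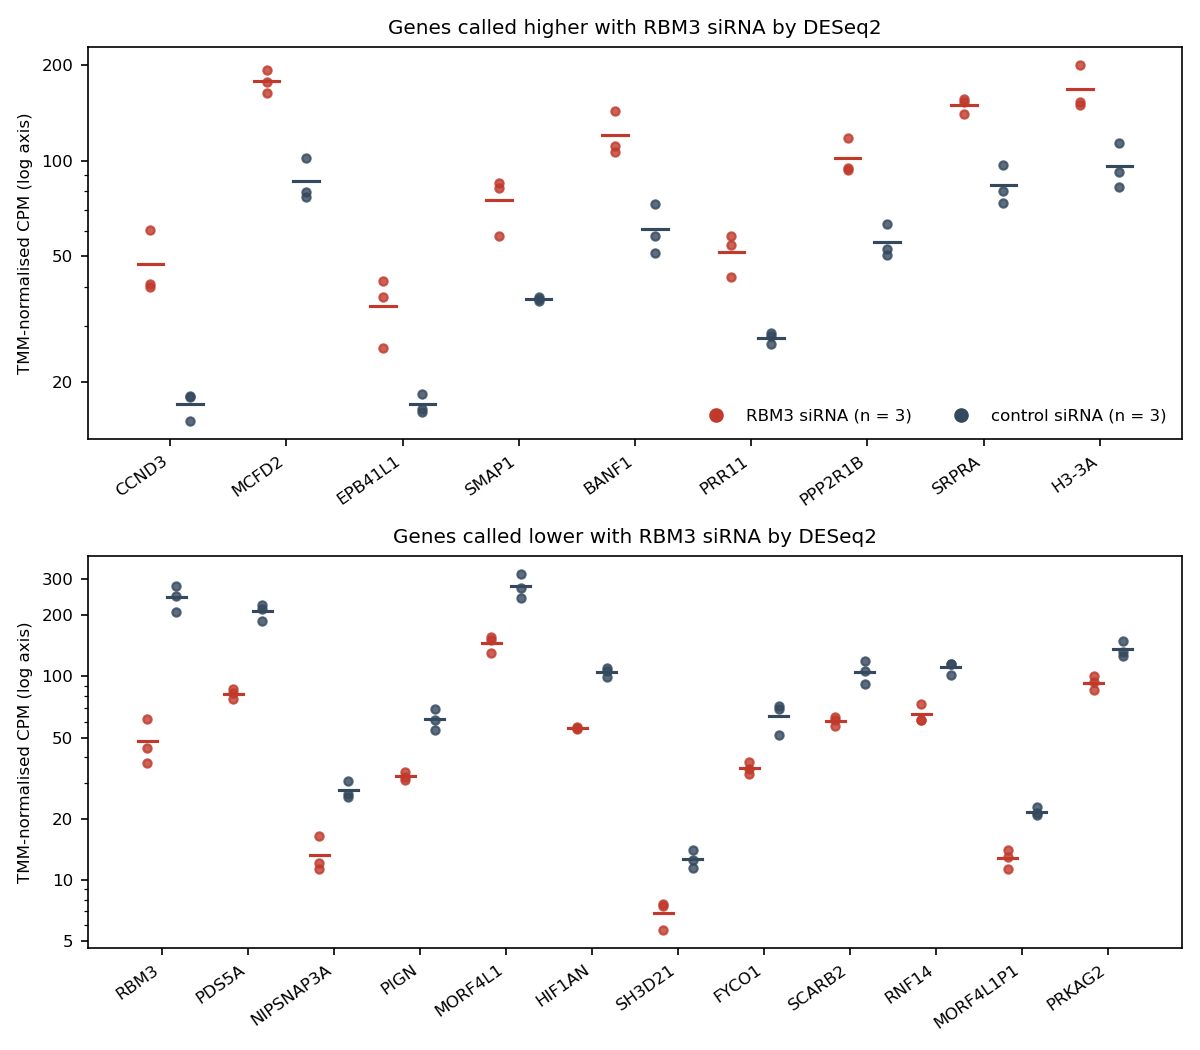
TMM-normalised CPM on a log axis of the 21 genes called by DESeq2 in MIA PaCa-2, higher genes above and lower genes below. Each point is a library, each bar the mean of 3 libraries, with RBM3 siRNA left of control siRNA; in all 21 genes the siRNA libraries lay on one side of the control libraries.

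The response beyond RBM3 was small. At an adjusted p of 0.05, edgeR called 2 of 17862 tested genes (0.0112%), RBM3 lower and the D-type cyclin CCND3 higher. DESeq2, a second count model fitted to the same libraries and listed as an alternative, gave an adjusted p to 13960 genes and called 21 of them (0.15%), 9 higher (0.0645%) and 12 lower (0.086%). limma-voom called RBM3 alone (0.0056%), and edgeR on the 6 MIA PaCa-2 libraries alone called RBM3 and PDS5A, 2 of 15413 genes (0.013%). In all 21 DESeq2 calls the groups did not overlap, which was true upwards of 4.41% and downwards of 3.63% of all tested genes. At an unadjusted p of 0.05, edgeR had 525 genes (2.94%), 314 higher (1.76%) and 211 lower (1.18%), fewer than the 893 that uniform p-values would give.

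The calls depended on the tool and on single libraries. edgeR called no gene in 10 of the 12 removals of 1 library, the 6 MIA PaCa-2 removals among them. DESeq2 called RBM3 in all 12 removals. RBM3, CCND3, PDS5A and MORF4L1 were called by DESeq2 in all 6 removals of a MIA PaCa-2 library, and SMAP1 and MCFD2 in 5 of 6. RNF14 and NIPSNAP3A were called in 4, SCARB2 and HIF1AN in 3, and EPB41L1, PPP2R1B and BANF1 in 2. PRR11, H3-3A, FYCO1 and SRPRA were called in 1, and PRKAG2, PIGN, SH3D21 and MORF4L1P1 in 0. The signs of all 21 genes held in every DESeq2 removal, while the number called ranged from 4, without siRNA replicate 2, to 50, without siRNA replicate 5. In what follows, called means an adjusted p under 0.05 in the named tool.

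**Figure D2:**
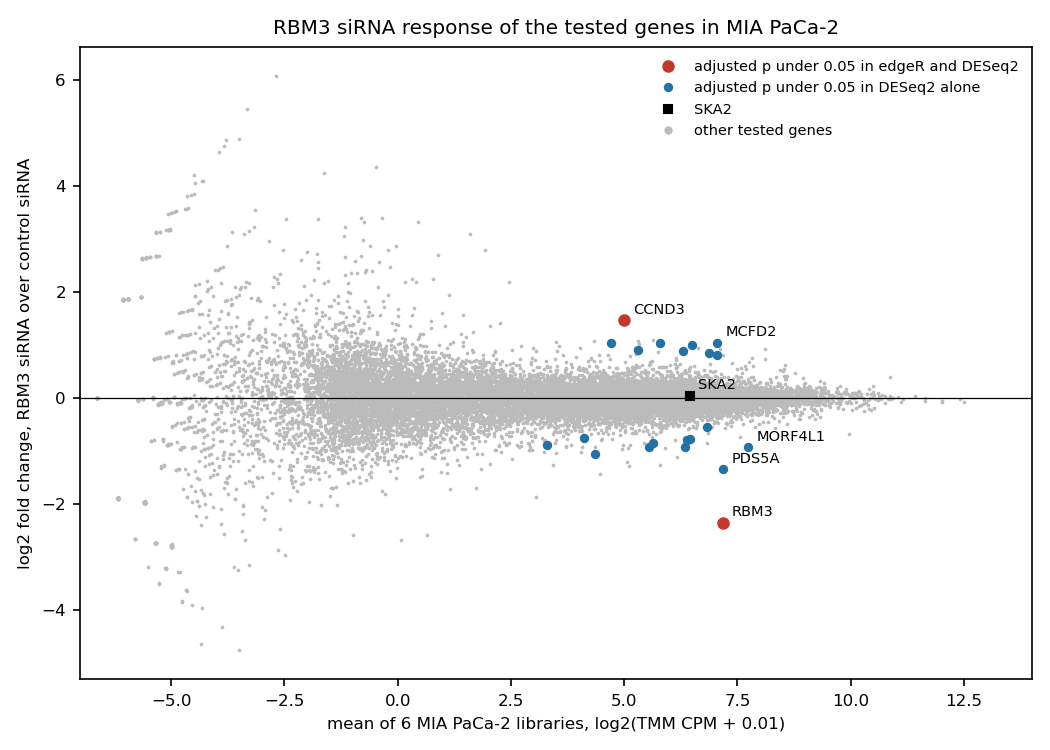
Log2 fold change of RBM3 siRNA over control siRNA for the tested genes, against mean level in the 6 MIA PaCa-2 libraries, log2(TMM CPM + 0.01). RBM3 at -2.35 and CCND3 at 1.46 are the 2 genes called by edgeR and DESeq2; the other 19 DESeq2 calls lie at smaller fold changes, and SKA2 lies at 0.04.

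The libraries did not divide by treatment. Total counts were 17861847 to 33358837 in the RBM3 siRNA libraries and 16094995 to 39652502 in the control libraries. The most alike pair of the 6 was siRNA replicate 5 with control replicate 2 (Pearson r of 0.986 over 10041 genes, on log2 CPM), and the least alike pair was siRNA replicates 1 and 5 (r of 0.933). Of the cell identity markers, KRT8, KRT18 and KRT19 were abundant (KRT8 802 to 1665 CPM with siRNA and 1204 to 1593 CPM with control), and the mesenchymal filament VIM had 4784 to 6244 CPM with siRNA and 3719 to 6524 CPM with control. The ductal and epithelial adhesion genes CDH1 and EPCAM and the keratin KRT7 were under 1 CPM in all 6 libraries. These epithelial markers of the labelled cell type were thus absent or nearly so. Of all 25 epithelial genes listed, 11 had a mean of at least 1 CPM, as did 10 of 19 mesenchymal genes. The mesenchymal genes CDH2 and THY1 had under 3 counts in every library. A mean of at least 1 CPM was also found for 4 of 12 fibroblast markers and 3 of 16 immune markers. Of the acinar markers, 9 of 10 had under 3 counts in every library, as did 8 of 10 islet markers, the hormones among them. The other 2 islet markers had a mean of at least 1 CPM. Endothelial markers were mixed: 3 of 10 (KDR, PECAM1 and TEK) had under 3 counts in every library, and 4 had a mean of at least 1 CPM. Their sum was 58.1 to 145 CPM with siRNA and 91.0 to 136 CPM with control. The 5 genes expressed in PANC-1 and near 0 in MIA PaCa-2 (FOXA2, MFSD1, SPART, DDX43 and B3GALNT1) summed to at most 0.119 CPM in the siRNA libraries and to 0 CPM in the controls. Of the PANC-1 libraries, which enter the same model, siRNA replicate 3 stood apart. COL1A2, a collagen chain, had 441 CPM in that library and 0.05 to 1.67 CPM in the other 5 PANC-1 libraries, while it had 899 to 1814 CPM in MIA PaCa-2. FOXA2, MFSD1, SPART, DDX43, B3GALNT1 and EPCAM were lowest there of the 6 PANC-1 libraries. Whether it holds MIA PaCa-2 RNA was not tested. Without it, RBM3 and CCND3 were again the 2 edgeR calls in MIA PaCa-2, and DESeq2 called 29 genes there.

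**Figure D3:**
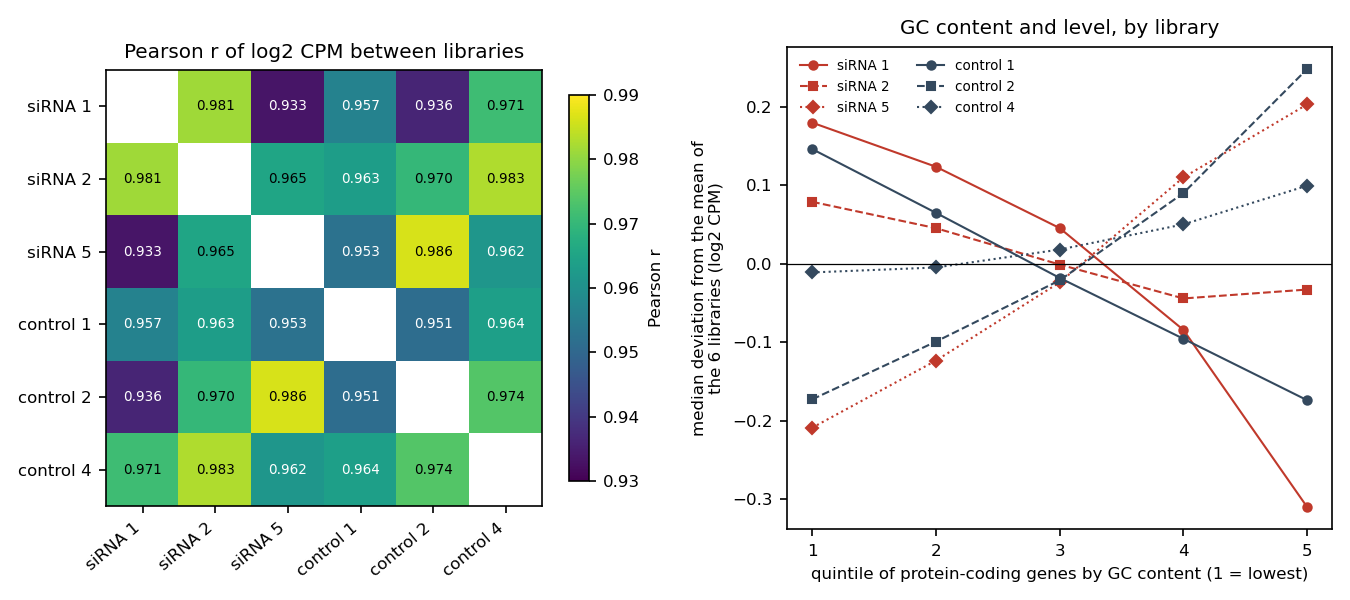
Left, Pearson r of log2 CPM between the 6 MIA PaCa-2 libraries, from 0.933 to 0.986. Right, median deviation of each library from the mean of the 6 (log2 CPM) by quintile of protein-coding genes in GC content; siRNA replicate 1 and control replicate 1 fell towards high GC, and siRNA replicate 5 and control replicate 2 rose.

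CCND3, on chromosome 6, was the one gene called higher by edgeR. It encodes cyclin D3, a partner of CDK4 and CDK6 at the start of the cell cycle. CCND3 had 39.9, 40.9 and 60.6 CPM in the RBM3 siRNA libraries, against 18.1, 18.0 and 15.1 CPM in the control libraries. The groups were well apart: the lowest siRNA library lay above the highest control, and the mean ratio was 2.76. The log2 fold change was 1.46 with a standard error of 0.19 (edgeR adjusted p = 0.0426, DESeq2 adjusted p = 5.29e-09), and siRNA replicate 5 was the highest library. Without a MIA PaCa-2 library, its log2 fold change ranged from 1.23 to 1.56 and its edgeR adjusted p from 0.0885 to 0.380. Without a PANC-1 library, the edgeR adjusted p ranged from 0.0301 to 0.110. In edgeR on the 6 MIA PaCa-2 libraries alone it was 0.281. With the replicate block, which in effect leaves siRNA replicate 5 out, it was 0.582.

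Among the other cyclins, cyclin-dependent kinases and their inhibitors, no gene besides CCND3 was called. Of 15 tested members, 1 was called by edgeR or DESeq2, 9 had a log2 fold change above 0, as did 48.6% of all tested genes, and 6 below, and the median was 0.08 (0.01 to 0.21 over the removals of single MIA PaCa-2 libraries). DESeq2 called 0.15% of all genes, and the list was chosen with results of these data known. CDK2, the kinase that acts with cyclins E and A, had 50.6, 58.4 and 61.5 CPM with RBM3 siRNA and 71.8, 89.4 and 74.6 CPM with control siRNA. Its groups did not overlap, but the fold change of -0.47 was not called (edgeR adjusted p = 1). CDK4 had 111, 152 and 210 CPM with RBM3 siRNA and 171, 211 and 154 CPM with control siRNA, and CDK6 had 120, 93 and 64.6 CPM with RBM3 siRNA and 106, 91.6 and 153 CPM with control siRNA. Both kinases that cyclin D3 binds thus overlapped between the groups.

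PRR11, on chromosome 17, was called by DESeq2 and not by edgeR. PRR11 had 57.9, 54.0 and 43.0 CPM in the RBM3 siRNA libraries, against 28.5, 26.3 and 27.9 CPM in the control libraries. The 3 controls lay close together and all 3 siRNA libraries lay above them. The log2 fold change was 0.91 with a standard error of 0.21 (edgeR adjusted p = 0.782, DESeq2 adjusted p = 0.0312). DESeq2 called PRR11 in 1 of the 6 removals of a MIA PaCa-2 library. SKA2, its head-to-head neighbour, had 87.2, 95.5 and 84.3 CPM with RBM3 siRNA and 86.6, 96.4 and 76.2 CPM with control siRNA. SKA2 overlapped fully, with a log2 fold change of 0.04 and a standard error of 0.24, so the neighbours' values were not alike; the difference between the genes was not tested.

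The PRR11 start region is shown because PRR11 and SKA2 are read outwards from neighbouring start sites. It is the RefSeq window of 300 bases around the PRR11 start (GRCh38.p14, chr17:59155496-59155795, plus strand), and 59 bases separate it from the SKA2 window. The capitals mark CCAAT and its reverse complement ATTGG, the letters of the CCAAT box, which were searched on both strands.
PRR11: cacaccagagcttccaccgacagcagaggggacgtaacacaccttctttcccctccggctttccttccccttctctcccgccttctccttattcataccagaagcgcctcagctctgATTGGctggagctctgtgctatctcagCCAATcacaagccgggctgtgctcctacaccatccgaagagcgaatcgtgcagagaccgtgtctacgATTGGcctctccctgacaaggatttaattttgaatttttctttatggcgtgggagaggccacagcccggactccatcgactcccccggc
It holds 3 such matches, 1 match to TTTGAA and none to GGGCGG on either strand. Of 35116 RefSeq start windows of this length, 34.6% hold CCAAT, 15.2% hold TTTGAA and 45.0% hold GGGCGG. These matches describe letters only.

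MORF4L1, on chromosome 15, encodes a chromodomain protein (MRG15) of the NuA4 acetyltransferase and SIN3 deacetylase complexes. MORF4L1 had 151, 156 and 130 CPM in the RBM3 siRNA libraries, against 242, 320 and 273 CPM in the control libraries. Every siRNA library lay below every control, with a log2 fold change of -0.93 and a standard error of 0.16 (edgeR adjusted p = 0.216, DESeq2 adjusted p = 0.000315). Its processed pseudogene MORF4L1P1, on chromosome 1, had 12.9, 14 and 11.3 CPM with RBM3 siRNA and 21.3, 22.8 and 20.9 CPM with control siRNA (log2 fold change -0.76, DESeq2 adjusted p = 0.0248). Both are among the 12 lower DESeq2 calls, but they cannot be counted as separate.

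The gene and its pseudogene share most of their letters. Over 1084 aligned columns of the coding stretch of MORF4L1 in the GENCODE 29 transcripts, 117 were gaps, and 99.3% of the others were identical. Of the 75-base windows of the pseudogene, 54.4% occur in another gene, as do 20.04% of those of MORF4L1, so reads of 75 bases could be assigned to either. The first 60 coding bases are shown because they differ at a single base, in capitals.
MORF4L1: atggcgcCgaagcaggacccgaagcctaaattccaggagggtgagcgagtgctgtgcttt
MORF4L1P1: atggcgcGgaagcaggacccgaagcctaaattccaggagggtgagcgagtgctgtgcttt

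Of the 21 tested NuA4 members and MORF4L1 partners, MORF4L1 was the one called by DESeq2, 16 had a log2 fold change above 0, and the median was 0.03 (0.02 to 0.09 over the removals). Among all genes, DESeq2 called 0.15%, and 48.6% of those tested lay above 0. The list was chosen with results of these data known, so its counts are a description. KAT5, the acetyltransferase of NuA4, had 35.4, 35.3 and 28.9 CPM with RBM3 siRNA and 22.1, 27.9 and 21.6 CPM with control siRNA. Its siRNA libraries lay above its controls by a log2 fold change of 0.48 that was not called (edgeR adjusted p = 1).

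PDS5A, on chromosome 4, showed the greatest fall after RBM3 among the genes called. It encodes a regulator of the cohesin ring that holds sister chromatids together. PDS5A had 86.7, 77.3 and 82.8 CPM in the RBM3 siRNA libraries, against 225, 187 and 214 CPM in the control libraries. The 3 siRNA libraries were close to each other, at 39.4% of the control mean, and far below the controls. The log2 fold change was -1.34 with a standard error of 0.20 (edgeR adjusted p = 0.10, DESeq2 adjusted p = 2.34e-05), and edgeR on the 6 MIA PaCa-2 libraries alone called it (adjusted p = 0.0437). None of the 75-base windows of PDS5A occurs in another gene.

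No other member of the cohesin and condensin list was called. Of 23 tested members, PDS5A was the one called by DESeq2, 10 were above 0 and 13 below, and the median was -0.01 (-0.13 to 0.06 over the removals). DESeq2 called 0.15% of all genes, and this list was chosen with results of these data known. STAG1 and STAG2 are alternative subunits of the cohesin ring. STAG1 had 15.3, 17.8 and 27.6 CPM with RBM3 siRNA and 61.0, 48.0 and 31.3 CPM with control siRNA. STAG2 had 348, 314 and 195 CPM with RBM3 siRNA and 216, 137 and 157 CPM with control siRNA. STAG1 did not overlap and STAG2 did, and neither was called (edgeR adjusted p = 1 for both). Of the 75-base windows of STAG1, 26.6% occur in another gene, all of them in PCCB, annotated on the other strand.

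Of 47 tested genes of endoplasmic reticulum entry and Golgi transport, DESeq2 called 3 higher, beside 0.0645% of all genes. This list, like the others, was chosen with results of these data known: 14 of the 21 DESeq2 calls are on a list, and 1.22% of all tested list members were called, against 0.15% of all genes. Counts of calls within a list are therefore a description and support nothing about it. MCFD2, the partner of the cargo receptor LMAN1 in export from the endoplasmic reticulum, had 194, 177 and 164 CPM with RBM3 siRNA and 102, 77.0 and 79.8 CPM with control siRNA. Its siRNA libraries all lay above its controls (log2 fold change 1.04, standard error 0.18, edgeR adjusted p = 0.216, DESeq2 adjusted p = 0.000443). SMAP1, a GTPase-activating protein for ARF proteins in membrane traffic, had 84.9, 81.8 and 57.9 CPM with RBM3 siRNA and 37.0, 36.1 and 36.6 CPM with control siRNA. The SMAP1 controls were almost equal, while siRNA replicate 5 was the lowest of its group (log2 fold change 1.03, DESeq2 adjusted p = 0.000443). Its reading carries a limit: 58.4% of its 75-base windows occur in B3GAT2, annotated on the other strand. The strand setting of the counting is not given. Of 29 named genes looked up, 15 have exons that overlap a gene on the other strand, so the limit is not confined to SMAP1. In the transcripts used, none of the windows of CCND3, SRPRA and PPP2R1B occurs in another gene. The share was 0.36% for HIF1AN, 2.22% for MCFD2 and 3.72% for PRR11. SRPRA, a subunit of the receptor for the signal recognition particle, had 156, 141 and 153 CPM with RBM3 siRNA and 73.5, 80.4 and 96.6 CPM with control siRNA (log2 fold change 0.85, DESeq2 adjusted p = 0.0248).

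The median of these 47 genes was 0.10, with 34 members above 0, and without each MIA PaCa-2 library in turn it lay between 0.04 and 0.10. Chaperones of the endoplasmic reticulum and unfolded protein response genes had none called of 21 tested and a median of 0.03 (-0.02 to 0.11 without single MIA PaCa-2 libraries). PIGN, which adds ethanolamine phosphate to glycolipid anchors in the endoplasmic reticulum, went the other way, with 31.0, 31.9 and 33.8 CPM with RBM3 siRNA and 69.0, 54.8 and 60.8 CPM with control siRNA (log2 fold change -0.93, DESeq2 adjusted p = 0.0455).

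Of 41 tested lysosomal and autophagy genes, DESeq2 called 2 lower, beside 0.086% of all genes, on a list chosen in the same way. SCARB2, the lysosomal membrane protein LIMP-2 that carries glucocerebrosidase to the lysosome, had 61.2, 63.3 and 57.1 CPM with RBM3 siRNA and 119, 91.5 and 106 CPM with control siRNA. Its 3 siRNA libraries agreed closely below the controls (log2 fold change -0.80, standard error 0.15, edgeR adjusted p = 0.360, DESeq2 adjusted p = 0.00600). FYCO1, an adaptor that links autophagosomes to kinesin, had 38.0, 33.2 and 35 CPM with RBM3 siRNA and 71.3, 51.4 and 69.4 CPM with control siRNA (log2 fold change -0.85, DESeq2 adjusted p = 0.0254). BECN1, a scaffold of the lipid kinase complex that starts autophagosomes, overlapped, with 47.6, 52.2 and 64.4 CPM with RBM3 siRNA and 79.9, 75.0 and 63.5 CPM with control siRNA. The list as a whole had a median of 0.02 (0.01 to 0.04 over the removals), with 24 members above 0 and 17 below.

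HIF1AN encodes the asparaginyl hydroxylase FIH, which restrains the hypoxia-inducible factors when oxygen is present. HIF1AN had 56.1, 55.2 and 55.7 CPM with RBM3 siRNA and 99.8, 110 and 106 CPM with control siRNA. Both groups were tight and lay far apart (log2 fold change -0.92, standard error 0.17, edgeR adjusted p = 0.360, DESeq2 adjusted p = 0.00600). Without a library its log2 fold change stayed between -0.94 and -0.90, but DESeq2 called it in 3 of the 6 removals of a MIA PaCa-2 library. It was the 1 called of 20 tested hypoxia genes, 12 of which lay below 0, with a median of -0.17 (-0.29 to -0.09 over the removals). Among all genes, DESeq2 called 0.15%, and 48.6% of those tested lay above 0. The hypoxia list was chosen with results of these data known, so its counts are a description. HIF1A itself had 112, 97.2 and 98.3 CPM with RBM3 siRNA and 143, 108 and 116 CPM with control siRNA, which overlap. VEGFA, a target of the factor, had 72.4, 55.0 and 49.8 CPM with RBM3 siRNA and 102, 48.4 and 74.1 CPM with control siRNA. KDM3A, a histone demethylase among the same targets, had 110, 94.5 and 60.6 CPM with RBM3 siRNA and 48.0, 49.7 and 63.8 CPM with control siRNA, which also overlap.

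A further group of DESeq2 calls concerned phosphatase, kinase and chromatin proteins. PPP2R1B, a scaffold subunit of protein phosphatase 2A, had 94.5, 93.5 and 118 CPM with RBM3 siRNA and 63.1, 52.7 and 50.4 CPM with control siRNA (log2 fold change 0.88, DESeq2 adjusted p = 0.00600). It was the 1 called of 18 tested phosphatase 2A genes, whose median was -0.00. PRKAG2, a regulatory subunit of the energy sensor AMP-activated kinase, had 93.4, 100 and 85.3 CPM with RBM3 siRNA and 126, 132 and 150 CPM with control siRNA. It had the smallest fold of the 21 (log2 fold change -0.55, DESeq2 adjusted p = 0.0491) and was the 1 called of 11 tested genes of that kinase. BANF1, a DNA-binding protein of nuclear envelope reassembly, had 107, 111 and 144 CPM with RBM3 siRNA and 58.0, 72.8 and 51.1 CPM with control siRNA (log2 fold change 0.99, DESeq2 adjusted p = 0.0240), 1 called of 15 tested nuclear envelope genes. DESeq2 called 0.15% of all genes, and these lists were chosen with results of these data known, so their counts are a description. H3-3A, one of the genes of histone H3.3, had 150, 153 and 201 CPM with RBM3 siRNA and 91.8, 114 and 82.4 CPM with control siRNA (log2 fold change 0.81, DESeq2 adjusted p = 0.0442). H3-3B, which encodes the same histone, had 371, 386 and 425 CPM with RBM3 siRNA and 332, 440 and 382 CPM with control siRNA, which overlap. Of the windows of H3-3A, 11.7% occur in other genes, as do 5.83% of those of BANF1, mostly in pseudogenes.

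The remaining DESeq2 calls were 1 higher and 3 lower. EPB41L1, a protein of the membrane skeleton, had 41.8, 37.2 and 25.7 CPM with RBM3 siRNA and 16.5, 16.2 and 18.4 CPM with control siRNA (log2 fold change 1.04, DESeq2 adjusted p = 0.00921). RNF14, a ubiquitin ligase, had 72.9, 61.3 and 60.8 CPM with RBM3 siRNA and 116, 101 and 115 CPM with control siRNA (log2 fold change -0.77, DESeq2 adjusted p = 0.00291). NIPSNAP3A had 11.3, 12 and 16.4 CPM with RBM3 siRNA and 26.4, 30.6 and 25.7 CPM with control siRNA (log2 fold change -1.06, DESeq2 adjusted p = 0.000301). SH3D21 was the least abundant, with 5.68, 7.58 and 7.42 CPM with RBM3 siRNA and 14.1, 12.5 and 11.5 CPM with control siRNA (log2 fold change -0.88, DESeq2 adjusted p = 0.0442). PIGN, PRKAG2, SH3D21 and MORF4L1P1 were called in 0 of the 6 removals of a MIA PaCa-2 library.

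Other genes had large folds without a call. RBPJ, the DNA-binding protein of the Notch pathway, had 75.0, 76.9 and 51.9 CPM with RBM3 siRNA and 42.9, 21.7 and 31.3 CPM with control siRNA. ZCCHC2 and the phosphoinositide kinase PIP4K2A each had a log2 fold change of 1.07 without overlap. ERCC5, the endonuclease XPG of nucleotide excision repair, had 1.06, but 99.9% of its windows also occur in the read-through gene BIVM-ERCC5. None of these 4 was called (edgeR adjusted p of 0.782 for the first 3 and 1 for ERCC5). On the lower side, RAVER1, an RNA-binding partner of splicing regulators, had 14, 34.1 and 48.8 CPM with RBM3 siRNA and 64.0, 104 and 64.5 CPM with control siRNA, and 49.7% of its windows occur in other genes. ATP2B4, a calcium pump of the plasma membrane, had 175, 131 and 104 CPM with RBM3 siRNA and 302, 215 and 347 CPM with control siRNA. Both spread widely within a group, and neither was called (edgeR adjusted p = 1).

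Across 50 gene lists with at least 5 tested members, 45 had a median within 0.2 of 0 on the log2 scale. Interferon response genes had the lowest pathway median, -0.43, with 32 of 34 tested members below 0 and none called by either tool. Their mean log2 CPM was 3.29, 2.87 and 3.63 in the RBM3 siRNA libraries, against 4.40, 3.05 and 3.37 in the control libraries. A single library, control replicate 1, stood above all others. OAS3, a double-stranded RNA sensor, showed it, with 8.76, 4.97 and 19.4 CPM with RBM3 siRNA and 47.3, 9.75 and 9.15 CPM with control siRNA. IFI44 was the member with the smallest p, with 1.47, 1.13 and 1.23 CPM with RBM3 siRNA and 4.59, 1.57 and 2.08 CPM with control siRNA. Without control replicate 1 the list median was -0.00.

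**Figure D4:**
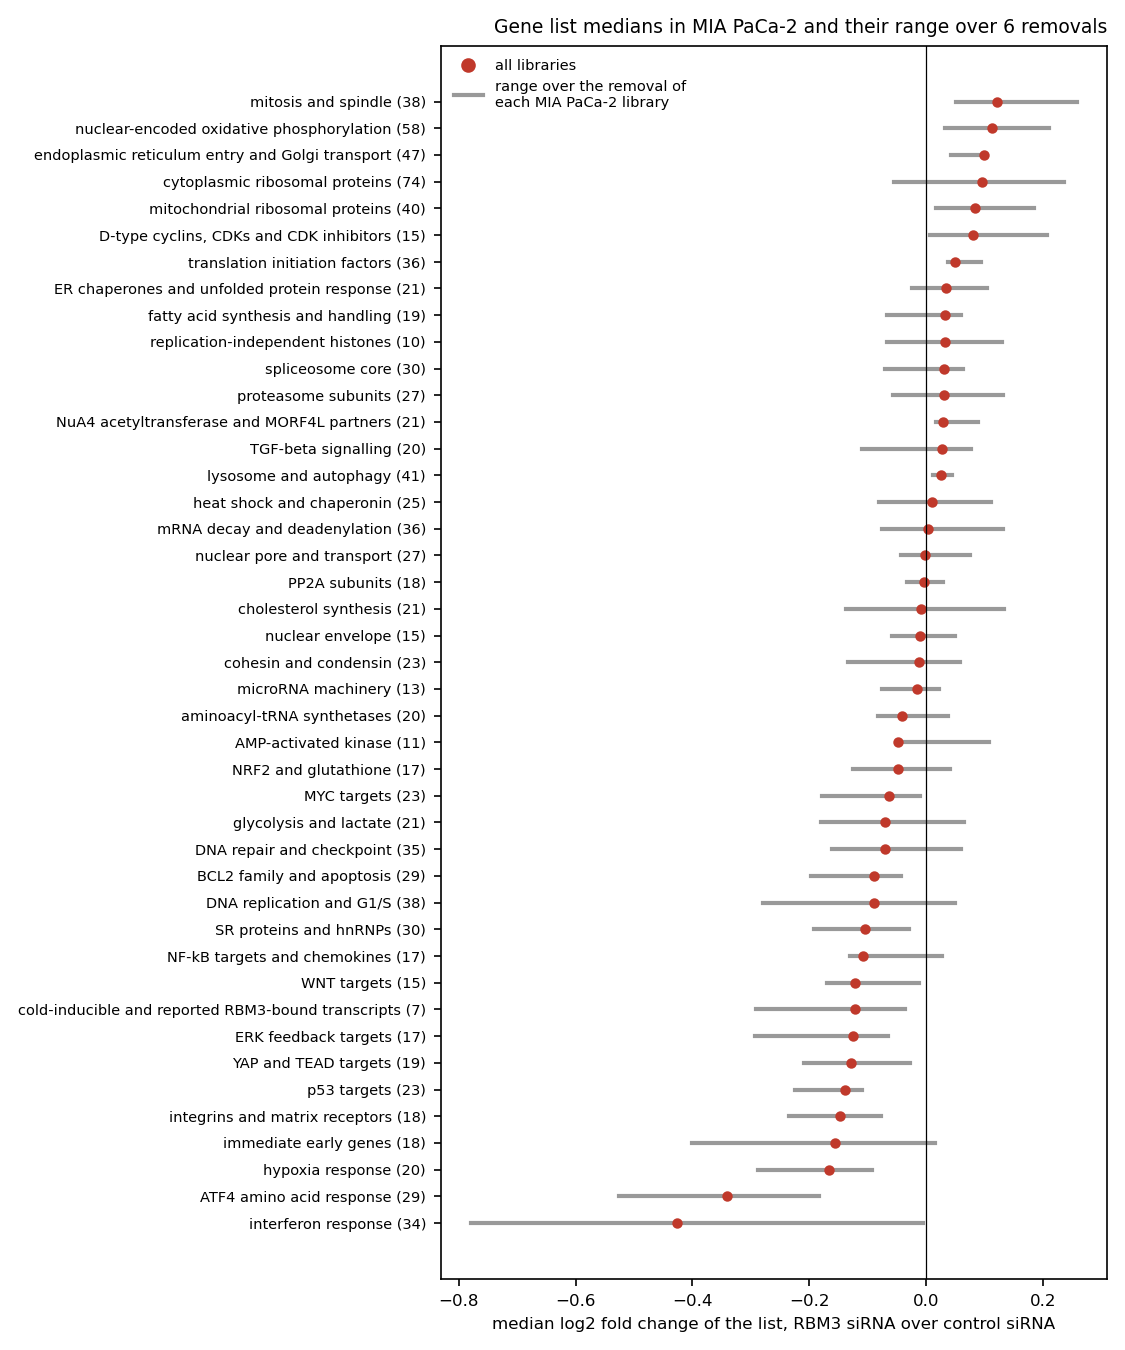
Median log2 fold change, RBM3 siRNA over control siRNA, of the pathway lists with at least 5 tested members (number tested in brackets). Grey bars span the medians found when each MIA PaCa-2 library is left out; the interferon list runs from -0.78 to -0.00 and the mitosis list from 0.05 to 0.26.

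Genes of the ATF4 amino acid response, which code for amino acid synthesis and uptake, had a median of -0.34, with 27 of 29 tested members below 0 and none called. Their mean log2 CPM was 5.65, 5.39 and 4.91 in the RBM3 siRNA libraries, against 6.10, 5.25 and 5.89 in the control libraries. The groups overlapped, since control replicate 2 lay below siRNA replicates 1 and 2. CHAC1, a glutathione-degrading enzyme of this response, had 25.0, 6.07 and 4.79 CPM with RBM3 siRNA and 44.0, 7.66 and 45.9 CPM with control siRNA, which overlap. SLC7A11, the cystine transporter, had 5.19, 4.22 and 1.34 CPM with RBM3 siRNA and 28.3, 3.86 and 7.00 CPM with control siRNA, which overlap too. The median lay between -0.53 and -0.18 without each MIA PaCa-2 library in turn.

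Mitosis and spindle genes had the highest pathway median, 0.12 (0.05 to 0.26 over the removals), with 34 of 38 tested members above 0 and none called. Their mean log2 CPM was 7.17, 7.21 and 7.02 in the RBM3 siRNA libraries, against 6.87, 7.25 and 6.84 in the control libraries, where control replicate 2 was the highest of all 6. KIF23, a kinesin of cytokinesis, had the smallest p, with 111, 106 and 86.2 CPM with RBM3 siRNA and 80.1, 85.7 and 71.7 CPM with control siRNA. TOP2A, a topoisomerase of dividing cells, had 779, 794 and 547 CPM with RBM3 siRNA and 543, 580 and 578 CPM with control siRNA, which overlap. DNA replication genes had 24 of 38 members below 0 and a median of -0.09, which ranged from -0.28 to 0.05 without single MIA PaCa-2 libraries.

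Lists of the expression machinery had medians near 0 and no call. Cytoplasmic ribosomal proteins had 64 of 74 members above 0 and a median of 0.09, which was -0.06 without control replicate 1 and -0.03 without siRNA replicate 5. Nuclear-encoded oxidative phosphorylation genes had 47 of 58 members above 0 and a median of 0.11, which was 0.03 without control replicate 1, 0.03 without siRNA replicate 5 and up to 0.21 without another library. Splicing factors of the SR and hnRNP families had 23 of 30 members below 0 and a median of -0.10 (-0.19 to -0.03 over the removals), and translation initiation factors a median of 0.05 (0.04 to 0.09). Target genes of p53 had 18 of 23 members below 0 and a median of -0.14 (-0.22 to -0.11 over the removals). MDM2, the p53 ubiquitin ligase, had the smallest p there, with 51.0, 38.9 and 39.0 CPM with RBM3 siRNA and 76.1, 53.5 and 71.2 CPM with control siRNA, and was not called (edgeR adjusted p = 1). Transcripts reported elsewhere as cold-inducible or bound by RBM3 gave RBM3 alone as a call of 7 tested; MYC had 413, 389 and 435 CPM with RBM3 siRNA and 443, 520 and 516 CPM with control siRNA, without overlap and not called.

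The fold changes also varied with base composition. In the quintile of protein-coding genes with the highest GC content (58.8% to 76.8%), the median log2 fold change was -0.11 and 29% of genes lay above 0, against a median of 0.03 in the lowest quintile. The libraries of each group differed in this: the highest quintile deviated by -0.31, -0.03 and 0.20 in siRNA replicates 1, 2 and 5, and by -0.17, 0.25 and 0.10 in control replicates 1, 2 and 4. The median of that quintile was 0.01 without siRNA replicate 1 and -0.26 without siRNA replicate 5. With offsets that remove each library's trend with GC content, edgeR called RBM3, CCND3 and PDS5A. Processed pseudogenes had a median of 0.17 over 1313 tested, and 69.2% lay above 0. Their median deviation was -0.08, 0.07 and 0.29 in the siRNA libraries and -0.18, 0.08 and -0.09 in the controls, with siRNA replicate 5 the highest. Without siRNA replicate 5, the pseudogene median was 0.06.

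PANC-1, transfected in the same way, gave a second set of libraries that shares no control with MIA PaCa-2. Of the 21 genes called by DESeq2 in MIA PaCa-2, RBM3 included, 20 had a log2 fold change of the same sign in PANC-1, where 52.4% of all tested genes had the same sign in both lines. Without PANC-1 siRNA replicate 3 the count was 19, beside 51.3% of all tested genes. The 20 include MORF4L1 and MORF4L1P1, which cannot be counted as separate, and CCND3, at 0.01 with a standard error of 0.18 in PANC-1. FYCO1 was the one with the opposite sign in the full set, with 0.20 in PANC-1. PPP2R1B was at 0.78 in PANC-1, MCFD2 at 0.72, MORF4L1 at -0.68 and SMAP1 at 0.66. PDS5A was at -0.32 with a standard error of 0.20. Smaller in size than their standard errors were SCARB2 at -0.13 (0.15), BANF1 at 0.13 (0.20), PIGN at -0.13 (0.22) and SH3D21 at -0.17 (0.23). Their signs, like that of CCND3, thus carry little weight. Without siRNA replicate 3, the library with COL1A2 counts, PPP2R1B was at 0.72, MCFD2 at 0.65, MORF4L1 at -0.59 and SMAP1 at 0.69. PRR11 was at 0.47 with a standard error of 0.21 in PANC-1, and at 0.32 with a standard error of 0.23 without that library. RBM3 was at -1.72 without it.

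**Figure D5:**
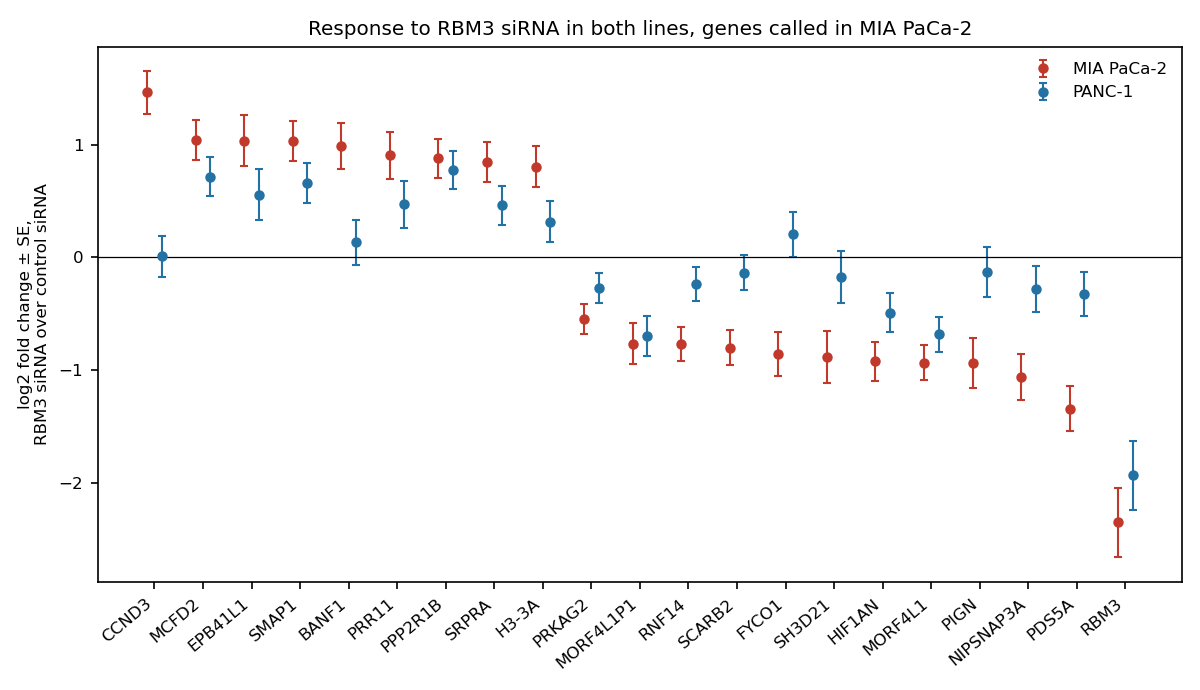
Log2 fold change of RBM3 siRNA over control siRNA with its standard error, with MIA PaCa-2 as the left point and PANC-1 (all 6 libraries, siRNA replicate 3 included) as the right, for the 21 genes called by DESeq2 in MIA PaCa-2. CCND3 stands at 1.46 in MIA PaCa-2, against 0.01 in PANC-1 (-0.02 without that library), and RBM3 at -2.35 in MIA PaCa-2, against -1.93 in PANC-1.

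The test of the difference between the lines called no gene in edgeR, where 532 (2.98%) passed 0.05 before adjustment, and 3 of 17767 in DESeq2 (0.0169%). One of the 3 was CCND3. In PANC-1 it had 57.6, 53.1 and 56.6 CPM with RBM3 siRNA and 50.9, 60.3 and 54.7 CPM with control siRNA. MIA PaCa-2 siRNA replicates 1 and 2, at 39.9 and 40.9 CPM, lay below every PANC-1 library, and replicate 5, at 60.6 CPM, lay above them. The difference in log2 fold change was 1.45 with a standard error of 0.26 (DESeq2 adjusted p = 0.00100, edgeR adjusted p = 0.9999). Without PANC-1 siRNA replicate 3 the DESeq2 adjusted p was 0.0361. The other 2 DESeq2 calls, GJB5 and a gene without a symbol, rest on that library. GJB5, a connexin, had 14.1 CPM in PANC-1 siRNA replicate 3 and 0 in the other 5 PANC-1 libraries, and 10.5 to 15.2 CPM in MIA PaCa-2. For the other genes called by DESeq2 in MIA PaCa-2 besides CCND3, RBM3 included, neither tool called a difference between the lines. The difference was -0.42 for RBM3 and -1.02 for PDS5A (for both, edgeR adjusted p = 0.9999 and DESeq2 adjusted p = 0.9998).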

How the data were processed

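The authors deposited unnormalised counts of reads in 63677 Ensembl genes for 12 libraries. The submitters' processing notes name Subread, featureCounts, Picard and STAR 2.5.2a and the build hg19/GRCh37. Libraries were TruSeq v2 with paired reads of 75 bp. The labels name both total and cytoplasmic RNA and 2 media. Not given in the sources used here are the strand setting, duplicate handling and annotation release. A name table gave 39699 rows a symbol. All mitochondrially encoded mRNAs were listed at 0.

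Genes were tested with edgeR 4.0.16 in R 4.3.3 (two-sided quasi-likelihood F-test, TMM, filterByExpr with a minimum count of 10, 17862 genes) in 1 model of 4 group means over all 12 libraries with 8 residual degrees of freedom, adjusted by Benjamini-Hochberg at 0.05. Standard errors were approximated as |log2 fold change| over the root of F. DESeq2 1.42.0, limma-voom (limma 3.58.1), other normalisations, filters, sample sets, a replicate block and single removals were alternatives. GC offsets, DESeq2 removals and PANC-1 folds without siRNA replicate 3 were added after seeing the data. Tests were run on simulated data. A count of 0 allows up to 3 counts, 0.0757 to 0.186 CPM in these 6 libraries (counting error only).

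The lists and the genes shown were chosen with earlier results of these data known, and get counts and medians but no test. Named genes were RBM3, PRR11 and SKA2, genes called in any fit, those with the smallest p or largest fold without overlap, and up to 3 members per list with the smallest p; CIRBP, CDK4, CDK6, HIF1A, VEGFA, H3-3B, MYC, OAS3, CHAC1, SLC7A11, TOP2A and GJB5 were named after their values were seen. Window identity and the MORF4L1 alignment used GENCODE 29 transcripts, and start windows came from RefSeq (GRCh38.p14), another build than the counts.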

Additional observations from a re-analysis of the deposited data

Results flagged for a closer look

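The CCND3 response differed between the lines by one tool. Its log2 fold change with RBM3 siRNA was 1.45 higher in MIA PaCa-2 than in PANC-1. DESeq2's test of that difference gave an adjusted p of 0.00100 and edgeR's an adjusted p of 0.9999, so the call rests on the choice of model. The cause was not tested.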

How the results depend on the processing

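RBM3 stayed lower under all 34 alternatives, past the threshold in 22. Its log2 fold change was -2.36 with median-of-ratios size factors (edgeR adjusted p = 0.0543) and -2.65 with the replicate block (adjusted p = 0.252). It lay between -2.59 and -2.20 over the edgeR removals of 1 MIA PaCa-2 library (adjusted p from 0.0885 to 0.548). With 1 PANC-1 library removed instead, the edgeR adjusted p ran from 0.00120 to 0.110. The number of genes called in MIA PaCa-2, 2 in edgeR, was 21 in DESeq2, 1 in limma-voom, 0 with median-of-ratios size factors (510 genes at an unadjusted p under 0.05), 0 with the replicate block (1073) and 0 to 3 over the removals. DESeq2 called 11, 4 and 50 genes without siRNA replicates 1, 2 and 5, and 17, 17 and 12 without control replicates 1, 2 and 4. Without PANC-1 siRNA replicates 1, 2 and 3 it called 18, 35 and 29 genes in MIA PaCa-2, and without PANC-1 control replicates 1, 2 and 4 it called 34, 18 and 15. The count of genes that differ between the lines, 0 in edgeR, was 3 in DESeq2, 107 without a filter on low counts, and 1 in DESeq2 without PANC-1 siRNA replicate 3. SKA2 changed sign without control replicate 4 (-0.0456 in edgeR, -0.0531 in DESeq2) and without siRNA replicate 2 (-0.00958 and -0.0166), with a range of -0.0456 to 0.114 over the edgeR removals; no value of SKA2 was called. Of 1564 pairs of an alternative and a named gene other than RBM3, 1361 kept direction and side of the threshold, 184 passed it, 15 fell short and 4 reversed. All 15 that fell short were CCND3, which stayed past the threshold in 19 of its 34. Why these values moved was not tested. The labels share replicate numbers 1 and 2 between the groups without saying that they pair, so pairing was not assumed in the main fit. The replicate block used the replicate numbers across both lines. MIA PaCa-2 siRNA replicate 5 and PANC-1 siRNA replicate 3 each had a number of their own. The block fit thus in effect left both libraries out. The correlation of deviations from the group means was 0.30 for number 1 and -0.12 for number 2. It was 0.63 for siRNA replicate 5 with control replicate 2, which share no number. These values therefore cannot decide whether libraries pair.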
